A study of Homo sapiens and Mus musculus with 27 samples.

Results

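The constitutive 26S proteasome subunits were followed over 9 groups of 3 RNA-seq libraries each, as 33 genes chosen by name: 7 subunits of the alpha ring (PSMA1 to PSMA7), 7 of the beta ring (PSMB1 to PSMB7), 6 ATPases of the regulatory particle (PSMC1 to PSMC6) and 13 non-ATPase subunits (PSMD1, PSMD2, PSMD3, PSMD4, PSMD6, PSMD7, PSMD8, PSMD11, PSMD12, PSMD13, PSMD14, ADRM1 and SEM1). All 33 were present among the 78932 features of the human tables and, as mouse orthologues, among the 25239 features of the mouse table, and all 33 passed the filter on low counts in each dataset. MDA-MB-231, a human triple-negative breast cancer line, was treated with 10 nM bortezomib plus 10 µM TM, with 10 nM bortezomib plus 10 µM AMD3100, or with vehicle. HCC1937, another human breast cancer line, received 10 µM TM alone, 10 µM AMD3100 alone, or vehicle. 4T1, a mouse mammary carcinoma line, was grown as tumours in Balb/c mice that received 1 mg/kg bortezomib every 4 days with 0.05 mg/ml TM in the drinking water, the same bortezomib with 5 mg/kg AMD3100 every 2 days, or vehicle. Bortezomib is a proteasome inhibitor and AMD3100 a chemokine receptor antagonist. The labels do not spell out TM and give no treatment durations for the lines. No group received bortezomib alone, so its effect and that of its partner cannot be told apart in MDA-MB-231 cells or in 4T1 tumours. One vehicle tumour library carries MDA-MB-231 and human in some of its labels, while its title and its column in the mouse table name 4T1.

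The 26S proteasome is the large protease that degrades ubiquitin-tagged proteins. Its core particle stacks alpha rings, which gate the entrance, on beta rings, which hold the proteolytic sites. The regulatory particle binds and deubiquitinates the substrate through non-ATPase subunits, then unfolds and threads it through a ring of ATPases. When proteasome activity falls short in mammalian cells, the transcription factor NFE2L1 is released from the endoplasmic reticulum with the help of the VCP segregase and activates subunit genes through antioxidant response elements, which it binds with small MAF partners.

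Promoter windows around annotated transcription starts, with 50 bases after the start, are shown for 6 subunits, 1 window each. PSMC4, ADRM1, PSMD14 and PSMB5 were called higher with bortezomib and a partner in MDA-MB-231 cells and have a core of the NFE2L1 element in the window, PSMC6 was called higher and has none, and PSMD7 was not called and has none. Sequences are from RefSeq, build GRCh38.p14, printed 5′ to 3′ on the strand of the gene, and capitals mark each match to TGACNNNGC or TGAGNNNGC, the core letters of an antioxidant response element, searched on both strands. Each motif was counted on its own, and matches of different motifs may overlap. Windows were found for 28 of the 33 subunits, 37 windows in all, and none was found for PSMA7, PSMB1, PSMB6, PSMB7 and PSMD4.
PSMC4, chr19:39970915-39971214, plus strand: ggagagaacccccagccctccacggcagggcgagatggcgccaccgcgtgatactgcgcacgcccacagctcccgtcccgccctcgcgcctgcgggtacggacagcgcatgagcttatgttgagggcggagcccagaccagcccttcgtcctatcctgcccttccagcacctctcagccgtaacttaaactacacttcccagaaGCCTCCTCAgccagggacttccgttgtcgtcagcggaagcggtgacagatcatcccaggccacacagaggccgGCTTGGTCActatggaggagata
ADRM1, chr20:62302646-62302945, plus strand: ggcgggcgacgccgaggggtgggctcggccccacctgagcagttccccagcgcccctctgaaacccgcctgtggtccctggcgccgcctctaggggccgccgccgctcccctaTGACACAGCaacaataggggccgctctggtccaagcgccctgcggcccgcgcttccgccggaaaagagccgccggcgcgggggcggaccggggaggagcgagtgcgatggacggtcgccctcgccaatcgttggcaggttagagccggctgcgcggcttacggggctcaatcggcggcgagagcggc
PSMD14, chr2:161308175-161308474, plus strand: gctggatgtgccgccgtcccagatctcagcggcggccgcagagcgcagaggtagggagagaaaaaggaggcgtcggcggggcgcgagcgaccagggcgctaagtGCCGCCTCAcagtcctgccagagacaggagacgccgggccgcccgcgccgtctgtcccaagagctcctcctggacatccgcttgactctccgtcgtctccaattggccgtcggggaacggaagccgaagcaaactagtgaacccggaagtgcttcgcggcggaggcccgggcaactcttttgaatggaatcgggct
PSMB5, chr14:23035171-23035470, minus strand: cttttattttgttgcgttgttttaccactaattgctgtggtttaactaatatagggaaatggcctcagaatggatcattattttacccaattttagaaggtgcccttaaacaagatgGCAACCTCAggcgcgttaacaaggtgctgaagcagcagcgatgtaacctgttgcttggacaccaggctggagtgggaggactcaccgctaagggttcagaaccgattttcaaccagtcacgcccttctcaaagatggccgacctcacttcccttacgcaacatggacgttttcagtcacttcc
PSMC6, chr14:52706950-52707249, plus strand: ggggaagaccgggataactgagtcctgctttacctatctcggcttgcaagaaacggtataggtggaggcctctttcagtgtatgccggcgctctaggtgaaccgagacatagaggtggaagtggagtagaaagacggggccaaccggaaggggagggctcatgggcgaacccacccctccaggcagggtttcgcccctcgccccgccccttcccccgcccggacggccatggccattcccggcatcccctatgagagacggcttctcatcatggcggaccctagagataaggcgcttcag
PSMD7, chr16:74296564-74296863, plus strand: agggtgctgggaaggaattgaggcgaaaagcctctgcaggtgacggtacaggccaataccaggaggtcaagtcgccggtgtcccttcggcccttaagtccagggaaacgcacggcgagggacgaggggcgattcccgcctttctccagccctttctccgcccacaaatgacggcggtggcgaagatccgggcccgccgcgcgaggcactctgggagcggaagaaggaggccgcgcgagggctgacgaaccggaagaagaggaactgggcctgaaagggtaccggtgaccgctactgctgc
PSMC4 held GCCTCCTCA starting at position -46 and GCTTGGTCA starting at position 27 relative to the start, both cores read on the other strand. ADRM1 held TGACACAGC at -137 on the strand of the gene, PSMD14 held GCCGCCTCA at -146 and PSMB5 held GCAACCTCA at -133, the last pair on the other strand. The PSMC6 and PSMD7 windows held neither core. Over the subunits, 18 of 37 windows (48.6%) held either core, against 29.1% of all 35116 promoter windows of that length, and 16 of the 28 subunits with a window had a core in at least 1 of them. Some subunits enter with more than 1 window, and windows of a gene can overlap. The ADRM1 windows do so and hold the same TGACACAGC, which counts in each. The letters did not separate the subunits that rose: all 16 subunits with a core were called higher with either combination in MDA-MB-231, and so were 10 of the 12 with none, PSMA6, PSMC2 and PSMC6 among them. TGACNNNGC alone was in 27% of the subunits' windows and in 13.3% of all windows, TGAGNNNGC in 27% and 18.3%, and CCAAT in 48.6% and 34.6%. A match describes letters in these windows and was not tested as a binding site.

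Libraries held 35981504 to 50735374 counts. In HCC1937, AMD3100 replicate 1 stood apart from the other 8 libraries, with 19.9% of counts on mitochondrial genes against 10.5% to 11.6%, and 20639 features detected against 29335 to 31770. Tests in HCC1937 therefore used 8 libraries, with 2 for AMD3100, and the counts of subunits called with all 9 libraries are given beside them. Epithelial markers summed to 1820 to 2498 CPM in HCC1937 and 535 to 771 CPM in MDA-MB-231, and T cell markers to at most 2.25 and 1.27 CPM. Levels of single genes are library-scaled counts (CPM) with TMM factors, a normalization that assumes most genes did not change. Marker sums, here and in the tumours, are CPM by library totals alone, without these factors. Calls are genes with an adjusted p under 0.05 in edgeR's quasi-likelihood test, corrected by the Benjamini-Hochberg method over every gene tested. The sample titles call the replicates "bio rep". The labels do not say whether these came from separate cultures, so p-values for the lines measure the spread between these libraries only.

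The subunits made up a larger part of the transcriptome after bortezomib with a partner in MDA-MB-231 cells. Together they took 1.69 ± 0.0185% of library counts with bortezomib plus TM, 1.61 ± 0.00514% with bortezomib plus AMD3100 and 0.781 ± 0.0126% with vehicle (mean ± SD, n = 3 each). The libraries did not overlap between either treatment and vehicle, at 1.67 to 1.70%, 1.61 to 1.62% and 0.771 to 0.796%. Every subcomplex had a larger share: the alpha ring took 0.186% and 0.176% in the treated groups and 0.115% with vehicle, the beta ring 0.481% and 0.446% against 0.221%, the ATPases 0.291% and 0.283% against 0.107%, and the non-ATPase subunits 0.73% and 0.709% against 0.338%. In HCC1937 the 33 subunits took 0.616 ± 0.00353% with TM, 0.580 ± 0.0167% with AMD3100 over all 3 libraries and 0.577 ± 0.00667% with vehicle. AMD3100 replicate 1 held 0.560%. Replicates 2 and 3 held 0.588% and 0.591%, both above the vehicle range of 0.572 to 0.585%. In 4T1 tumours they took 0.489 ± 0.0563% with bortezomib plus TM, 0.481 ± 0.0352% with bortezomib plus AMD3100 and 0.505 ± 0.0279% with vehicle, and the 3 groups overlapped.

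**Figure D1:**
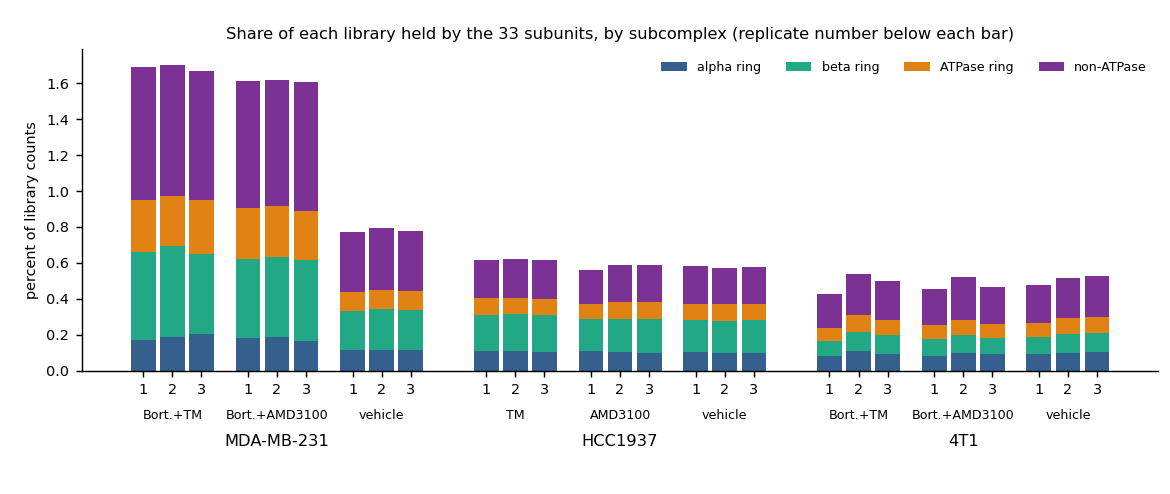
Percent of library counts held by the 33 subunits, stacked by subcomplex, for each of the 27 libraries in 3 datasets. The 6 MDA-MB-231 libraries treated with bortezomib and a partner stand at 1.61% or more, against 0.771 to 0.796% with vehicle.

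With bortezomib plus TM, 31 of the 33 subunits were called higher than with vehicle in MDA-MB-231 and 0 were called lower. Over all 16498 genes tested, 24.1% were called higher and 27.6% lower. The median log2 change of the subunits was 1.43, beside -0.09 over all genes, and the called subunits rose 1.996-fold to 5.98-fold, 30 of them at least 2-fold and 4 at least 4-fold. Every treated library was above every vehicle library at 31 subunits, beside 26.3% of all genes. With bortezomib plus AMD3100, 31 subunits were also called higher and 0 lower, beside 22.3% of all genes higher and 24.2% lower. Their median log2 change was 1.37, beside -0.05 over all genes, the called subunits rose 1.68-fold to 5.71-fold, and at 31 subunits the libraries were all above vehicle, beside 26.8% of all genes. PSMA2 and PSMD7 were the subunits not called, in both comparisons. Both comparisons share the vehicle libraries. With scaling by library totals alone, the all-gene medians moved to -0.51 for bortezomib plus TM and -0.41 for bortezomib plus AMD3100, the subunits' medians to 1.01 and 1.00, and the same 31 subunits were called higher. The subunits stood 1.52 above the all-gene median under both scalings with TM, and 1.42 or 1.41 above it with AMD3100. Among all calls, 46.7% were higher with bortezomib plus TM under TMM and 23.5% under library totals, and 47.9% and 25.1% with bortezomib plus AMD3100.

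**Figure D2:**
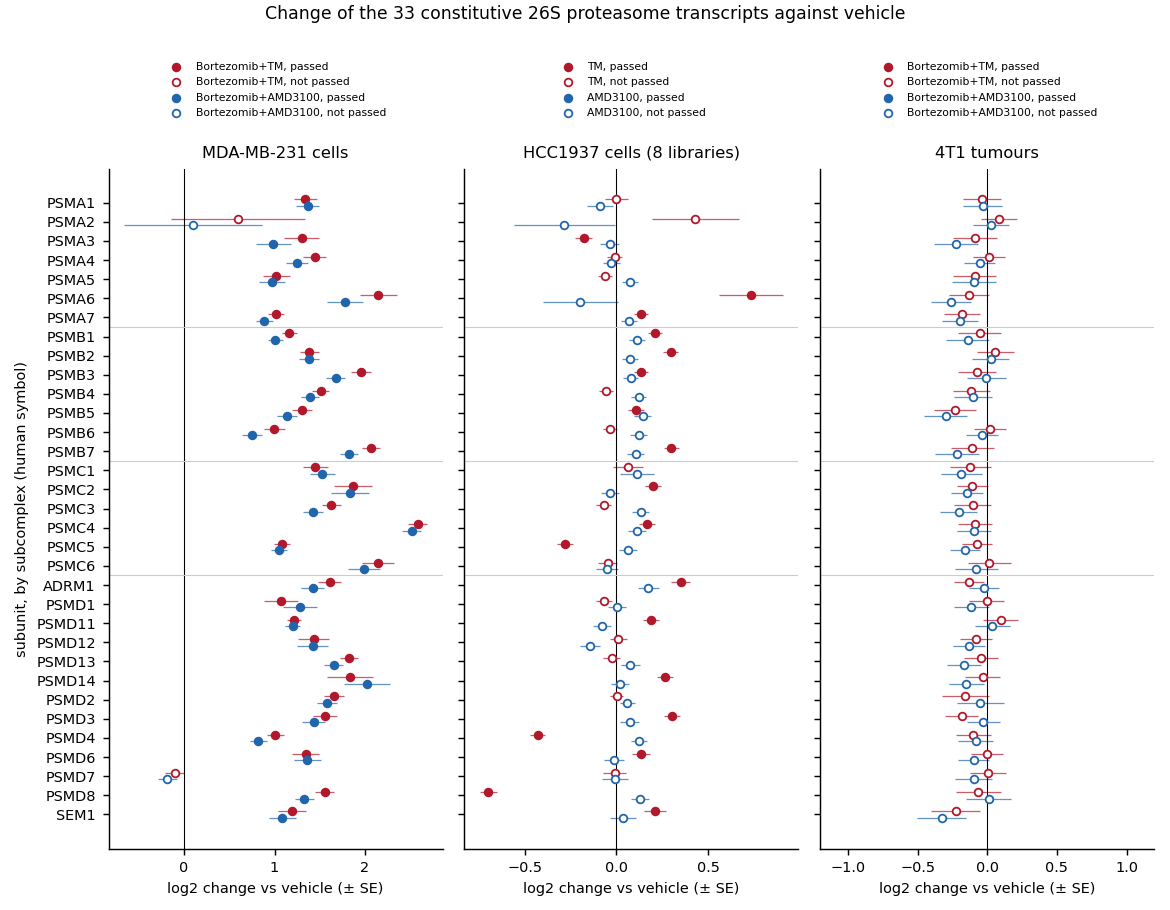
Log2 change against vehicle of the 33 subunits, with standard error, for the TM arm (red) and the AMD3100 arm (blue) in MDA-MB-231, HCC1937 (8 libraries) and 4T1; filled points passed the test. In MDA-MB-231 all subunits but PSMA2 and PSMD7 lie at 0.75 or above with filled points, and in 4T1 no point is filled.

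In the alpha ring, 6 of 7 subunits rose with either combination, with a median log2 change over the 7 of 1.30 with bortezomib plus TM and 0.99 with bortezomib plus AMD3100. The largest change was in PSMA6 (ENSG00000100902, chr14:35278633-35317493, GRCh38, as are all gene positions here), an alpha ring subunit. PSMA6 had 10.6, 9.02 and 11.3 CPM with bortezomib plus TM, 8.88, 7.89 and 7.20 CPM with bortezomib plus AMD3100 and 2.66, 2.54 and 1.78 CPM with vehicle. All 6 treated libraries were above the 3 vehicle libraries, and the log2 change was 2.15 ± 0.20 (edgeR adjusted p = 5.09e-06) with TM and 1.78 ± 0.20 (edgeR adjusted p = 2.57e-05) with AMD3100. These levels rest on few counts, 93 to 508 per library, and 4 pseudogene features of PSMA6 held 1926 counts over the MDA-MB-231 libraries, against 2613 in the gene itself, so its level is uncertain. PSMA2 (chr7:42916857-42932223), another alpha ring subunit, had 8, 4 and 34 counts with bortezomib plus TM, 10, 13 and 6 with bortezomib plus AMD3100 and 22, 5 and 11 with vehicle. The groups overlapped, and its log2 changes of 0.60 ± 0.74 and 0.10 ± 0.77 were smaller than their errors. In the annotation, 34.6% of PSMA2 exon bases are shared with other genes and 29.6% of its 100-base stretches occur in another gene. In 4T1, Psma6 had 132, 186 and 172 CPM with bortezomib plus TM, 138, 164 and 147 CPM with bortezomib plus AMD3100 and 159, 187 and 193 CPM with vehicle. Psma2 had 84.5, 111 and 97.0 CPM with bortezomib plus TM, 85.1, 103 and 92.4 CPM with bortezomib plus AMD3100 and 83.9, 95.7 and 96.2 CPM with vehicle, and both overlapped between the tumour groups.

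In the beta ring, 7 of 7 subunits rose with either combination, with median log2 changes of 1.38 in both. The proteolytic sites lie on PSMB5 (chymotrypsin-like, the main target of bortezomib), PSMB6 (caspase-like) and PSMB7 (trypsin-like). PSMB5 (chr14:23016543-23035230) had 733, 705 and 556 CPM with bortezomib plus TM, 592, 577 and 609.9 CPM with bortezomib plus AMD3100 and 267, 293 and 248 CPM with vehicle. Every treated library was above every vehicle library, with a log2 change of 1.30 ± 0.11 (edgeR adjusted p = 2.76e-06) with TM and 1.14 ± 0.11 (edgeR adjusted p = 9.50e-06) with AMD3100. PSMB6, the smallest change of the ring, had 397, 367 and 310.3 CPM with bortezomib plus TM, 305, 284 and 315 CPM with bortezomib plus AMD3100 and 173, 200.2 and 166 CPM with vehicle. Its treated libraries were also all above vehicle, by 1.00 ± 0.11 (edgeR adjusted p = 1.98e-05) with TM and 0.75 ± 0.11 (edgeR adjusted p = 2.13e-04) with AMD3100. PSMB7, the largest change of the ring, had 1095, 1144 and 955 CPM with bortezomib plus TM, 892, 895 and 918 CPM with bortezomib plus AMD3100 and 245, 279 and 242 CPM with vehicle. The lowest treated library of PSMB7 was over 3 times the highest vehicle library, and the log2 change was 2.06 ± 0.10 (edgeR adjusted p = 3.70e-08) with TM and 1.82 ± 0.10 (edgeR adjusted p = 1.07e-07) with AMD3100.

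**Figure D3:**
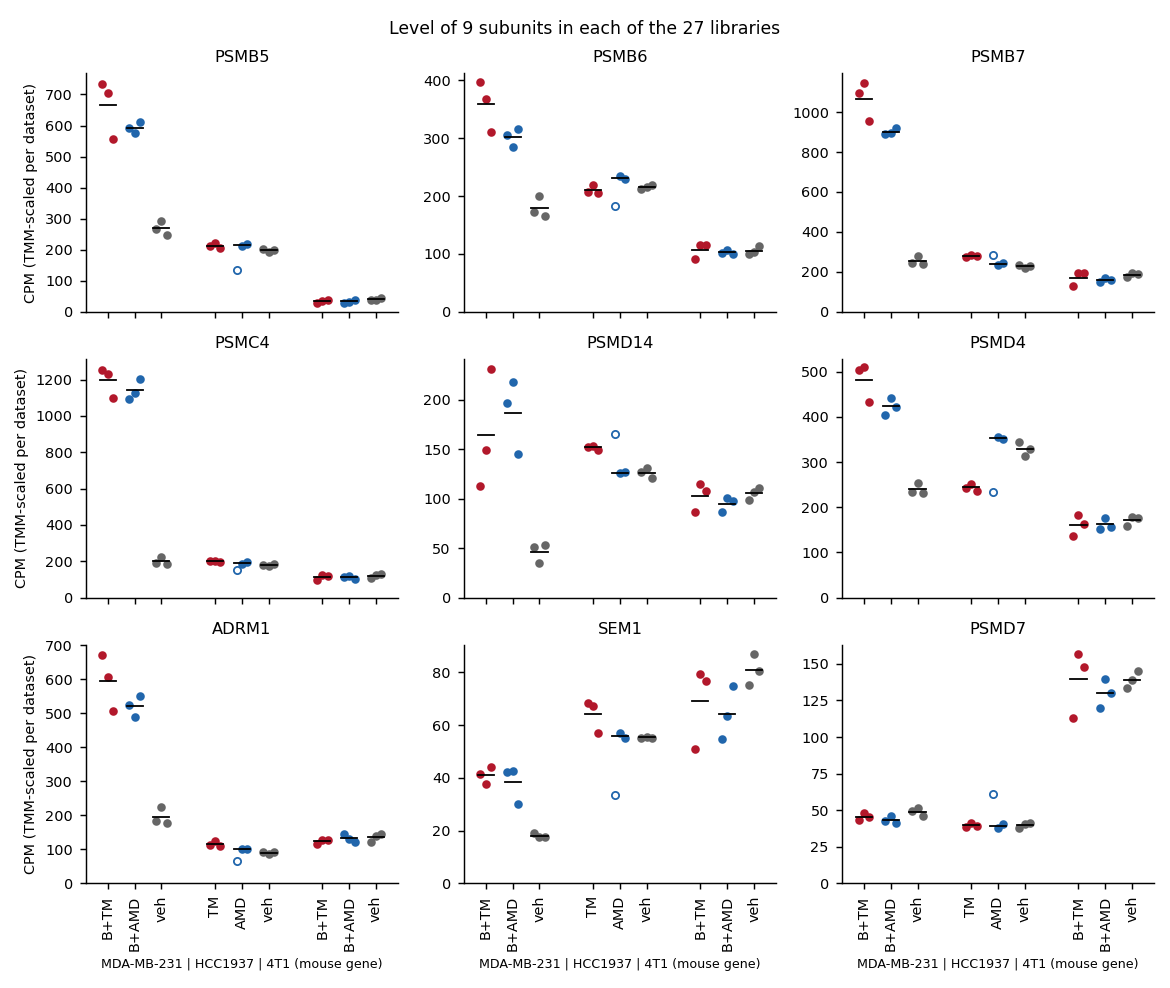
CPM (TMM-scaled) in each of the 27 libraries for PSMB5, PSMB6, PSMB7, PSMC4, PSMD14, PSMD4, ADRM1, SEM1 and PSMD7, with a line at each group mean; the open circle is HCC1937 AMD3100 replicate 1, left out of the mean. In MDA-MB-231 the PSMC4 libraries treated with bortezomib and a partner lie at 1093 CPM or more and the vehicle libraries at 183 to 225 CPM.

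In the ATPase ring, which unfolds substrates, 6 of 6 subunits rose with either combination, with median log2 changes of 1.75 with bortezomib plus TM and 1.68 with bortezomib plus AMD3100. PSMC4 (chr19:39971005-39981441) changed most of all 33 subunits. PSMC4 had 1256, 1232 and 1101 CPM with bortezomib plus TM, 1093, 1129 and 1202 CPM with bortezomib plus AMD3100 and 192, 225 and 183 CPM with vehicle, so every treated library was more than 4 times any vehicle library. Its log2 change was 2.58 ± 0.11 (edgeR adjusted p = 1.11e-08) with TM and 2.51 ± 0.11 (edgeR adjusted p = 1.82e-08) with AMD3100. PSMC5, the smallest change of the ATPases, had 392, 378 and 369.5 CPM with bortezomib plus TM, 358, 377 and 377 CPM with bortezomib plus AMD3100 and 168, 194 and 175 CPM with vehicle. Its groups did not overlap either, and it rose by 1.09 ± 0.09 (edgeR adjusted p = 1.46e-06) with TM and 1.05 ± 0.09 (edgeR adjusted p = 2.44e-06) with AMD3100. PSMC1 counts are uncertain in the human tables, since 82.3% of its 100-base stretches occur in other genes and it has 13 pseudogene features.

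Among the non-ATPase subunits, 12 of 13 rose with either combination, with median log2 changes of 1.43 with bortezomib plus TM and 1.36 with bortezomib plus AMD3100. PSMD14, the deubiquitinase that removes ubiquitin chains from substrates, had 113, 149 and 231 CPM with bortezomib plus TM, 197, 219 and 145 CPM with bortezomib plus AMD3100 and 50.7, 35.03 and 52.7 CPM with vehicle. Its treated libraries spread widely but all lay above vehicle, with log2 changes of 1.83 ± 0.25 (edgeR adjusted p = 8.68e-05) and 2.02 ± 0.25 (edgeR adjusted p = 5.49e-05). PSMD4 and ADRM1 are ubiquitin receptors, and PSMD4 had 504, 509.6 and 434 CPM with bortezomib plus TM, 405, 443 and 423 CPM with bortezomib plus AMD3100 and 233, 253 and 232 CPM with vehicle. ADRM1 had 672, 607 and 507 CPM with bortezomib plus TM, 524, 488 and 552 CPM with bortezomib plus AMD3100 and 183, 225 and 177 CPM with vehicle. Both receptors were higher in every treated library than in any vehicle library, PSMD4 by 1.01 ± 0.09 and 0.82 ± 0.09 and ADRM1 by 1.61 ± 0.13 and 1.42 ± 0.13 on the log2 scale, with TM and with AMD3100 as the partner. SEM1, a small subunit of the regulatory particle's lid, had 41.4, 37.8 and 44.3 CPM with bortezomib plus TM, 42.2, 42.6 and 30.0 CPM with bortezomib plus AMD3100 and 18.9, 17.6 and 17.5 CPM with vehicle, higher in all 6 treated libraries.

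PSMD7 (chr16:74296775-74306288), the partner of PSMD14 in the lid, was the exception among the well-counted subunits. It had 43.0, 48.2 and 45.2 CPM with bortezomib plus TM, 42.3, 45.7 and 41.1 CPM with bortezomib plus AMD3100 and 49.4, 51.2 and 46.0 CPM with vehicle. The TM and vehicle libraries overlapped and the AMD3100 libraries all lay below vehicle, with log2 changes of -0.10 ± 0.11 (edgeR adjusted p = 0.440) and -0.18 ± 0.11 (edgeR adjusted p = 0.181). With library totals alone PSMD7 was called lower in both, at -0.52 and -0.54. The annotation places AC009120.2 over 30.7% of PSMD7 exon bases and 23.1% of its 100-base stretches occur in another gene, so its level is uncertain too.

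Bortezomib plus AMD3100 and bortezomib plus TM were not told apart at the subunits in MDA-MB-231. In edgeR's test 0 of 33 subunits and 0 of 16498 genes (0%) were called between the combinations, beside 1464 genes and 3 subunits at an unadjusted p under 0.05, all 3 lower with AMD3100. DESeq2 called 70 genes and 0 subunits, and limma-voom 0 of either. The median difference of the subunits, AMD3100 minus TM, was -0.12 on the log2 scale, beside 0.01 over all genes. Of the 33 differences 5 were positive, beside 51.7% over all genes. At 6 subunits every AMD3100 library lay below every TM library, beside 6.56% of all genes. PSMB3, a beta ring subunit without proteolytic activity, differed by -0.28 ± 0.10 (edgeR adjusted p = 0.504), and was called lower when bortezomib plus TM replicate 3 was left out, at -0.40 (edgeR adjusted p = 0.0467). PSMB5 differed by -0.17 ± 0.11 and PSMB7 by -0.24 ± 0.10.

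TM alone moved subunits in both directions in HCC1937. In the 8-library fit 15 subunits were called higher than with vehicle and 4 lower, beside 19.4% of 20398 genes higher and 21.4% lower, and the subunits' median log2 change was 0.06, beside 0.00 over all genes. By subcomplex, 2 alpha subunits were higher and 1 lower of 7, 5 beta subunits were higher of 7, 2 ATPases were higher and 1 lower of 6, and 6 non-ATPase subunits were higher and 2 lower of 13. Every TM library lay above every vehicle library at 16 subunits, beside 24.7% of all genes, and below at 7, beside 25.4%. These calls rest on leaving AMD3100 replicate 1 out of the fit, since with all 9 libraries 0 subunits were called higher and 1 lower, PSMD8, beside 2.96% and 4.11% of genes. The called changes lay between -0.43 and 0.35 on the log2 scale, apart from PSMA6, at 0.73 ± 0.18 on few counts, and PSMD8, a lid subunit, at -0.70 ± 0.05 (edgeR adjusted p = 1.12e-12).

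PSMD8 had 95.5, 96.9 and 95.8 CPM with TM, 142, 161 and 175 CPM with AMD3100 and 159, 151 and 159 CPM with vehicle. All 3 TM libraries were below the other 6. AMD3100 replicate 1, left out of the tests, is the first AMD3100 value here and in the other HCC1937 values. PSMD4 had 243, 252 and 237 CPM with TM, 233, 356 and 350.4 CPM with AMD3100 and 344, 312 and 329 CPM with vehicle, and it fell with TM, by 0.43 on the log2 scale (edgeR adjusted p = 1.86e-09). PSMC5 had 157, 163 and 159.7 CPM with TM, 136, 196 and 205 CPM with AMD3100 and 188, 191 and 204 CPM with vehicle, at -0.28 ± 0.04 with TM (edgeR adjusted p = 5.06e-06). Both PSMD4 and PSMC5 were therefore lower in every TM library than in any vehicle library in HCC1937, and higher than vehicle in MDA-MB-231 treated with bortezomib and TM. ADRM1 went the other way from PSMD4 although both receive ubiquitin, with 113, 124 and 109 CPM with TM, 67.1, 101 and 99.8 CPM with AMD3100 and 93.1, 86.2 and 91.4 CPM with vehicle, at 0.35 ± 0.05 with TM (edgeR adjusted p = 2.61e-06).

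Of the proteolytic subunits in HCC1937, PSMB7 rose with TM. PSMB7 had 274, 284 and 279.7 CPM with TM, 286, 236 and 246 CPM with AMD3100 and 235, 219 and 228 CPM with vehicle, at 0.30 ± 0.04 with TM (edgeR adjusted p = 7.69e-07). PSMB5 had 213, 222 and 205 CPM with TM, 134, 213 and 219 CPM with AMD3100 and 204, 193 and 198 CPM with vehicle. Its change of 0.11 ± 0.04 with TM was called (edgeR adjusted p = 0.0434) but was lost with no filter on low counts, and on leaving out TM replicate 1, TM replicate 2, vehicle replicate 2 or vehicle replicate 3 (edgeR adjusted p = 0.0838, 0.202, 0.148 and 0.11). PSMB6 had 208, 218 and 205 CPM with TM, 182, 234 and 229 CPM with AMD3100 and 212, 216 and 219 CPM with vehicle, with overlapping groups and a change of -0.04 ± 0.04 (edgeR adjusted p = 0.523), which is 0.018 with library totals alone. PSMD14 had 153, 153 and 149.8 CPM with TM, 165, 126 and 127 CPM with AMD3100 and 127, 131 and 121 CPM with vehicle, at 0.27 ± 0.04 with TM (edgeR adjusted p = 1.62e-05). SEM1 had 68.2, 67.1 and 57.0 CPM with TM, 33.4, 56.9 and 55.1 CPM with AMD3100 and 55.2, 55.6 and 55.2 CPM with vehicle. PSMD14 and SEM1 were called higher with TM, SEM1 at 0.21 ± 0.06 (edgeR adjusted p = 0.00646), and every TM library of each was above every vehicle library. The SEM1 call was lost without TM replicate 1 (edgeR adjusted p = 0.0619). PSMC4, the subunit that changed most in MDA-MB-231, had 202, 199 and 198 CPM with TM, 152, 182 and 197 CPM with AMD3100 and 178, 173 and 183 CPM with vehicle, at 0.17 ± 0.04 with TM (edgeR adjusted p = 0.00233). PSMD7 had 38.6, 41.2 and 38.9 CPM with TM, 61.0, 37.5 and 40.5 CPM with AMD3100 and 38.1, 40.3 and 41.0 CPM with vehicle, and its groups overlapped but for AMD3100 replicate 1. PSMA6 had 199, 192 and 253 counts with TM, 216, 123 and 82 with AMD3100 and 110, 129 and 123 with vehicle, higher in every TM library than in any vehicle library. PSMA2 had 84, 103 and 104 counts with TM, 59, 59 and 49 with AMD3100 and 63, 64 and 76 with vehicle, and was not called with TM (edgeR adjusted p = 0.154).

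AMD3100 alone gave no called subunit in HCC1937. In edgeR's test 0 of 33 subunits were called against vehicle, beside 8.14% of 20398 genes. At an unadjusted p under 0.05 there were 11 subunits, 1 of them lower, beside 20.9% of all genes. The smallest adjusted p was for PSMB5, at 0.14 ± 0.05 (edgeR adjusted p = 0.0560). DESeq2 called PSMB4, PSMB5, PSMC3 and ADRM1 higher and PSMD12 lower, limma-voom called PSMB4, PSMB5 and PSMC3 higher, and with all 9 libraries 0 subunits and 0 genes were called. All 7 beta subunits had both AMD3100 libraries above the 3 vehicle libraries, with changes of 0.07 to 0.14. Over the 33, 13 subunits were so placed, beside 18.2% of all genes, and 5 lay below vehicle in both libraries, beside 18.1%. Of all genes called with AMD3100, 66.2% were higher under TMM and 45.1% with library totals alone.

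Between the drugs given alone, AMD3100 minus TM, 8 subunits were called higher and 12 lower, beside 19.7% of 20398 genes higher and 16.8% lower. With all 9 libraries only PSMD8 was called, higher with AMD3100, beside 4.61% and 3.6% of genes. PSMD8 differed by 0.83 ± 0.05 (edgeR adjusted p = 3.48e-13), PSMD4 by 0.55 ± 0.05 (edgeR adjusted p = 1.33e-10) and PSMC5 by 0.35 ± 0.05, each higher with AMD3100. On the other side the largest differences were those of PSMA6, at -0.93, and PSMA2, at -0.72, both called lower on few counts. PSMD11 differed by -0.26 ± 0.05, PSMD14 by -0.25 ± 0.05, PSMC2 by -0.24 ± 0.05 and PSMB2 by -0.22 ± 0.04, each lower with AMD3100. With library totals alone the split was 4 higher and 17 lower among the subunits, and 39.8% of all calls were higher, against 53.9% under TMM.

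The test of the difference in response between the lines called 31 of 33 subunits higher in MDA-MB-231 with bortezomib plus TM than in HCC1937 with TM, beside 16.4% of 22621 genes, and 31 of 33 with bortezomib plus AMD3100 against AMD3100, beside 12.9%. The median differences were 1.43 and 1.31. PSMB5 differed by 1.26 ± 0.14 (edgeR adjusted p = 9.90e-07) and 1.03 ± 0.15 (edgeR adjusted p = 3.24e-05), and PSMC4 by 2.47 ± 0.12 (edgeR adjusted p = 2.57e-11) and 2.44 ± 0.13 (edgeR adjusted p = 1.81e-10), for the TM and the AMD3100 arm. The line and bortezomib differ together between these datasets and cannot be told apart. With library totals alone the subunits called higher were 31 and 30, with 1 called lower in each arm, and the share of all calls that were higher was 20.1% and 24.4%, against 50.2% and 48.4% under TMM.

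In 4T1 tumours no subunit and no gene was called in edgeR's test: 0 of 33 and 0 of 15846 (0%) for bortezomib plus TM against vehicle, for bortezomib plus AMD3100 against vehicle and between the combinations. At an unadjusted p under 0.05 there were 688, 1144 and 454 genes and 0 subunits in these comparisons. DESeq2 called 3, 17 and 6 genes and 0 subunits, and limma-voom 0 of either. Subunits' changes ran from -0.23 in Psmb5 to 0.09 in Psmd11 with bortezomib plus TM, with a median of -0.08 and 7 of 33 positive, beside a median of 0.00 and 50.5% positive over all genes. With bortezomib plus AMD3100 they ran from -0.33 in Sem1 to 0.04 in Psmd11, with a median of -0.10 and 4 of 33 positive, beside 0.01 and 51% over all genes. On leaving out 1 library, the subunits' median ran from -0.15 to 0.05 with bortezomib plus TM, so its sign was not stable. With bortezomib plus AMD3100 it ran from -0.19 to -0.05. Bortezomib plus TM replicate 1 held 0.429% of its counts in the subunits, against 0.540% and 0.499% in the others of its group. Tumours are mixed tissue, and fewer cells of a type and less RNA per cell cannot be told apart in them.

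Psmb5, whose protein is the main target of bortezomib, had 28.9, 36.1 and 39.5 CPM with bortezomib plus TM, 29.4, 32.4 and 37.8 CPM with bortezomib plus AMD3100 and 39.5, 38.9 and 44.4 CPM with vehicle. Its AMD3100 libraries were all below vehicle, its TM libraries reached into the vehicle range, and the changes were -0.23 ± 0.15 (edgeR adjusted p = 0.887) and -0.30 ± 0.15 (edgeR adjusted p = 0.634). Psmb6 had 90.5, 116 and 115 CPM with bortezomib plus TM, 101, 107 and 99.1 CPM with bortezomib plus AMD3100 and 99.6, 103 and 113 CPM with vehicle, with overlapping groups. Psmb7 had 128, 194 and 193 CPM with bortezomib plus TM, 149, 169 and 159 CPM with bortezomib plus AMD3100 and 172, 194 and 189 CPM with vehicle. Sem1 had 50.98, 79.3 and 76.8 CPM with bortezomib plus TM, 54.8, 63.3 and 75.0 CPM with bortezomib plus AMD3100 and 75.3, 87.0 and 80.5 CPM with vehicle. With bortezomib plus AMD3100, Psmb5, Psmb7, Psmc1 and Sem1 lay below vehicle in every library, 4 of 33 subunits beside 7.34% of all genes, and with bortezomib plus TM only Psmd3 did, beside 5.01%. Psmd14 had 86.2, 115 and 108 CPM with bortezomib plus TM, 86.3, 101 and 97.3 CPM with bortezomib plus AMD3100 and 98.9, 107 and 110.5 CPM with vehicle. Psmd4 had 135, 182 and 163 CPM with bortezomib plus TM, 152, 177 and 157 CPM with bortezomib plus AMD3100 and 159, 179 and 177 CPM with vehicle, and both genes overlapped between groups. Adrm1 had 114, 127 and 129 CPM with bortezomib plus TM, 144, 131 and 123 CPM with bortezomib plus AMD3100 and 121, 139 and 145 CPM with vehicle. Psmc4 had 96.5, 122 and 116 CPM with bortezomib plus TM, 113, 118 and 103 CPM with bortezomib plus AMD3100 and 106, 122 and 129 CPM with vehicle, so the most changed subunit of MDA-MB-231 overlapped between the tumour groups. Psmc5 had 107, 131 and 123 CPM with bortezomib plus TM, 115, 115 and 111 CPM with bortezomib plus AMD3100 and 114, 137 and 130.1 CPM with vehicle. Psmd7 had 113, 157 and 148 CPM with bortezomib plus TM, 119.6, 139 and 130.3 CPM with bortezomib plus AMD3100 and 133, 139 and 145 CPM with vehicle, and neither Psmc5 nor Psmd7 separated the groups with bortezomib plus TM.

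Marker genes of cell types varied within the tumour groups, and 2 lists also differed between groups. Epithelial marker genes summed to 1122 to 1843 CPM with bortezomib plus TM, 997 to 1265 CPM with bortezomib plus AMD3100 and 1440 to 2340 CPM with vehicle. Neutrophil markers summed to 54.5 to 93.5, 39.5 to 80.7 and 85.3 to 117 CPM in these groups. Both lists lay below vehicle in every library treated with bortezomib plus AMD3100, the group in which 4 subunits did so, and both overlapped between bortezomib plus TM and vehicle. T cell markers summed to 47.3 to 301, 51.5 to 465 and 18.4 to 97.8 CPM, and B cell markers to 1.62 to 458, 4.42 to 648 and 1.92 to 106 CPM, in the same groups, with overlap. The part of these differences in the subunits' values was not tested.

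Per kilobase of exon, PSMA7, an alpha ring subunit, was the highest in MDA-MB-231. It had 716 ± 34.9 CPM per kb with bortezomib plus TM, 655 ± 17.2 with bortezomib plus AMD3100 and 354 ± 27.7 with vehicle. These levels divide by the tables' gene lengths, so the order of the subunits depends on the annotation as well as on the counts. PSMD1 has a length of 15795 bases there and 5187 in GENCODE 29, and PSMC2 has 8637 and 3547. The median level of the subunits was 88.8, 86.7 and 41.8 CPM per kb in these groups. Apart from PSMA2 and PSMA6, SEM1 was the lowest, at 3.86 ± 0.307, 3.59 ± 0.673 and 1.69 ± 0.0760 CPM per kb. Its length in the tables is 10668 bases, so this place rests on the annotated length too. In HCC1937 PSMB3 was the highest in each group, at 259 ± 7.52 CPM per kb with TM, 246 ± 2.05 with AMD3100 over 2 libraries and 236 ± 4.26 with vehicle. Neighbours near the top did not differ beyond their spread in MDA-MB-231 treated with bortezomib plus TM, where PSMB3 had 711 ± 93.8 and PSMD2 had 689 ± 53.2 CPM per kb. The mouse table gives no gene lengths, so levels were not ordered in 4T1.

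**Figure D4:**
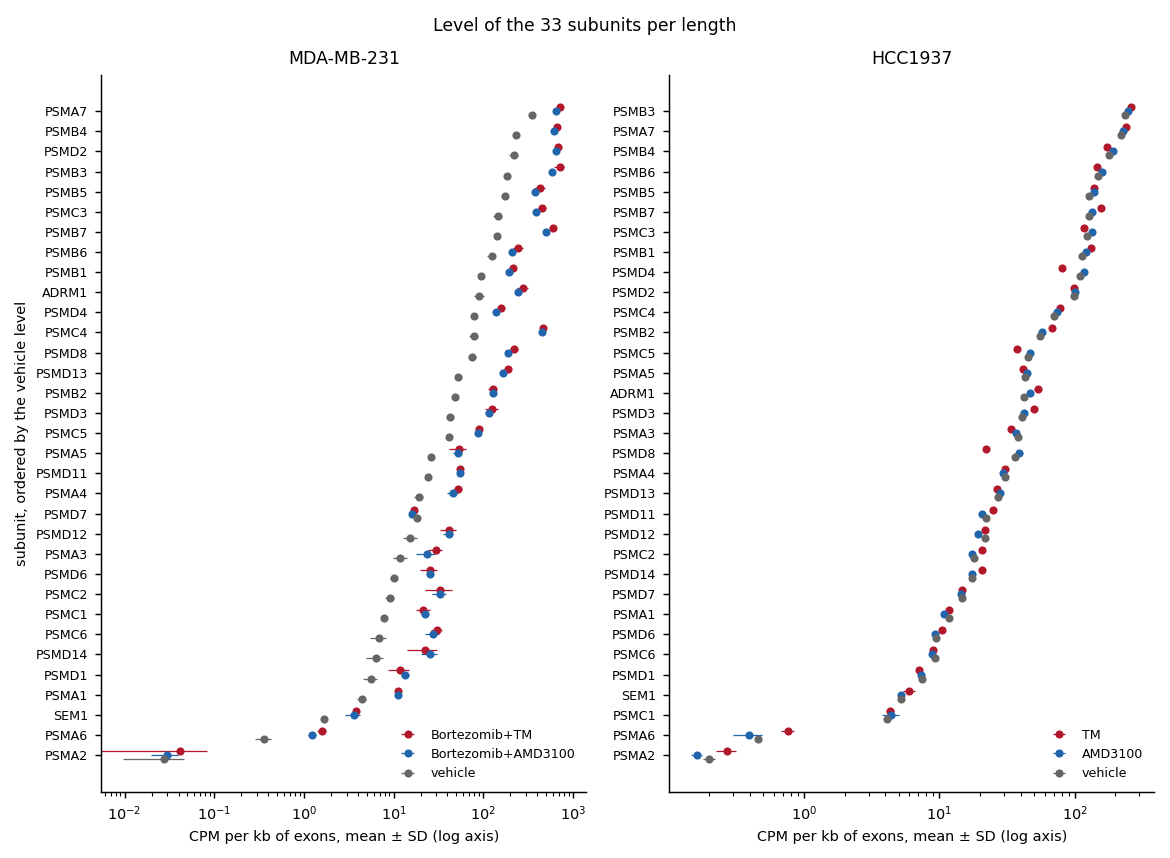
Level of each of the 33 subunits in CPM per kb of exon on a log axis, mean ± SD per group, ordered by the vehicle level, in MDA-MB-231 and HCC1937. In MDA-MB-231 the medians are 88.8, 86.7 and 41.8 CPM per kb with bortezomib plus TM, bortezomib plus AMD3100 and vehicle.

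The constitutive proteolytic subunits moved apart from their immunoproteasome counterparts, which replace them in immune cells and after interferon, in MDA-MB-231 with either combination and, for 2 of 3 pairs, in HCC1937 with TM. In MDA-MB-231 the ratio of PSMB5 to PSMB8 per kb was 37.2 ± 2.45 with bortezomib plus TM, 38.8 ± 1.45 with bortezomib plus AMD3100 and 12.4 ± 0.842 with vehicle, that of PSMB6 to PSMB9 was 232 ± 21.7, 195 ± 33.6 and 84.9 ± 2.72, and that of PSMB7 to PSMB10 was 179.6 ± 16.8, 183 ± 9.50 and 43.9 ± 1.16. The ranges of treated and vehicle libraries did not overlap for any of the 3 ratios. Of PSMB8, PSMB9 and PSMB10, 0 rose with either combination and PSMB8 was called lower with bortezomib plus AMD3100, at -0.52 ± 0.14 (edgeR adjusted p = 0.00914). In HCC1937 the ratio of PSMB6 to PSMB9 was 67.1 to 89.1 with TM, 28.6 to 30.2 with AMD3100 over 2 libraries and 25.01 to 32.1 with vehicle, and that of PSMB7 to PSMB10 was 134 to 174, 68.7 to 81.1 and 70.7 to 90.2, so the TM libraries lay above vehicle at both. The PSMB5 to PSMB8 ratios overlapped there, with PSMB8 under 1 CPM. PSMB9 fell with TM by 1.43 on the log2 scale (edgeR adjusted p = 6.20e-12, and 9.53e-04 with all 9 libraries). PSMB10 fell by 0.67 (edgeR adjusted p = 0.0133), a call lost with all 9 libraries (edgeR adjusted p = 0.150) and without TM replicate 3 or vehicle replicate 3 (edgeR adjusted p = 0.0566 and 0.0579).

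Genes around the proteasome were counted in lists, and each count below stands beside the share of all genes called in that comparison. NFE2L1 itself had 488, 473 and 437 CPM with bortezomib plus TM, 448, 429 and 521 CPM with bortezomib plus AMD3100 and 278, 328 and 249.96 CPM with vehicle in MDA-MB-231. All treated libraries were above vehicle, with log2 changes of 0.71 ± 0.12 (edgeR adjusted p = 3.34e-04) and 0.71 ± 0.12 (edgeR adjusted p = 4.01e-04). Of the 13 genes of the NFE2L1 list, 7 were called higher and 2 lower with bortezomib plus TM, and 8 higher and 1 lower with bortezomib plus AMD3100, beside 24.1% and 27.6% of all genes with TM as the partner and 22.3% and 24.2% with AMD3100. Its small MAF partners MAFF and MAFG rose by 3.47 and 1.87 with TM as the partner, and UFD1, a cofactor of the VCP segregase, by 2.10. In HCC1937, 9 of the 13 were called higher and 3 lower with TM, beside 19.4% and 21.4% of all genes. With all 9 libraries 2 were higher and 0 lower, beside 2.96% and 4.11% of all genes. NFE2L1 changed by 0.43 ± 0.05 (edgeR adjusted p = 1.96e-08, and 0.258 with all 9 libraries). With AMD3100, 2 of the 13 were called higher, beside 8.14% of genes in either direction, and 0 with all 9 libraries. The difference in the NFE2L1 response between the lines was 0.34 ± 0.14 (edgeR adjusted p = 0.0783) in the TM arm and 0.55 ± 0.15 (edgeR adjusted p = 0.00999) in the AMD3100 arm.

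Of 9 assembly chaperones, 1 was called higher and 3 lower with either combination in MDA-MB-231, beside the shares of all genes just given. POMP, which assists core particle maturation, rose by 1.63 ± 0.12 and 1.41 ± 0.11, while PSMG4, an alpha ring assembly chaperone, fell by 1.59 and 1.52 and PAAF1, which binds ATPases before assembly, fell by 0.77 and 0.88. Activators and inhibitor gave 2 of 5 higher with bortezomib plus TM and 1 of 5 with bortezomib plus AMD3100, beside 24.1% and 22.3% of all genes, with PSME1, a subunit of a proteasome activator, at 0.47 ± 0.11 and 0.40 ± 0.11, neither of which was called with library totals alone. Of 10 associated enzymes and shuttles, 3 were higher and 1 lower with bortezomib plus TM and 4 higher and 1 lower with bortezomib plus AMD3100, beside the same shares, led by TXNL1, a proteasome-bound thioredoxin-like protein, at 1.44 ± 0.12 and 1.28 ± 0.12. Of 6 ubiquitin genes, 5 were called higher with either. The 6 heat shock genes kept for comparison were all higher with either combination, HSPA1A by 6.21 ± 0.20 and 6.12 ± 0.20. With TM in HCC1937, 1 of these 6 was higher and 4 were lower, HSPA1A at -0.82 ± 0.04 (edgeR adjusted p = 0.0798 with all 9 libraries), while 1 of 9 assembly chaperones was higher and 5 lower, beside 19.4% and 21.4% of all genes. Beside the same shares, 1 of 10 associated enzymes was higher and 7 lower, and 2 of 6 ubiquitin genes were higher and 3 lower. Of 5 activators and inhibitor, 1 was higher and 3 lower. With all 9 libraries 0 heat shock genes were higher and 2 lower, and 0 chaperones were higher and 1 lower, beside 2.96% and 4.11% of all genes. In that fit the enzymes gave 0 higher and 1 lower, the ubiquitin genes 1 and 0, and the activators and inhibitor 0 and 2. With AMD3100 in HCC1937, 0 of 6 heat shock genes were higher and 2 lower, and 0 of 9 assembly chaperones were called, beside 8.14% of genes. Of 6 ubiquitin genes 3 were higher and 1 lower, and 1 of 5 activators and inhibitor was higher, beside the same share. None of the 10 associated enzymes was called. In the fit of all 9 libraries 0 genes of these lists were called, beside 0% of all genes. In 4T1 tumours 0 genes of these lists were called in any comparison.

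**Figure D5:**
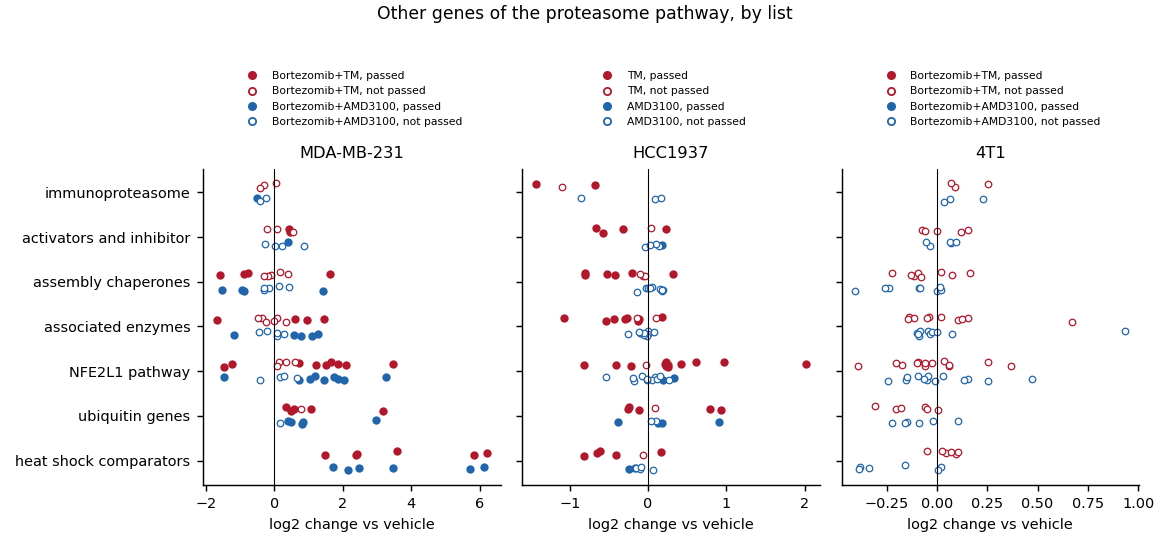
Log2 change against vehicle of the genes in the lists around the proteasome (NFE2L1 pathway, assembly chaperones, immunoproteasome, activators and inhibitor, associated enzymes, ubiquitin and heat shock genes), for the TM arm (red) and the AMD3100 arm (blue) in the 3 datasets. In MDA-MB-231 HSPA1A reaches 6.21 with bortezomib plus TM and 6.12 with bortezomib plus AMD3100, while the 4T1 genes were not called.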

How the data were processed

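Poly(A) RNA from 27 samples was sequenced on a NovaSeq as paired-end reads, per the labels' protocols. The authors deposited raw counts per gene in 1 table per dataset. featureCounts 2.0.1 and MultiQC 1.11 are named in the submitters' processing notes, with builds GRCh38 and GRCm38, while the aligner and annotation are not given in the sources used here. Of feature counts from 1 to 20, 56.9 to 66.1% were even. Whether pairs or single mates were counted is not given in the sources used here; if mates were, a fragment would enter the counts more than once and counting error would be understated.

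Each dataset was fitted separately on its deposited counts with edgeR 4.0.16 (R 4.3.3), TMM factors, filterByExpr, 1 coefficient per group and the quasi-likelihood test, adjusted by Benjamini-Hochberg over all tested genes. TMM factors in MDA-MB-231 were 0.874 to 0.935 with bortezomib plus TM, 0.912 to 0.945 with bortezomib plus AMD3100 and 1.14 to 1.25 with vehicle. Differences between the human tables were tested as an interaction over 17 libraries, without HCC1937 AMD3100 replicate 1, whose CPM are shown but not fitted. Fits were tested on simulated data. DESeq2 1.42.0, limma-voom 3.58.1, other filters and scalings, a replicate block and leaving out each replicate were alternatives; scaling by library totals was chosen after seeing the TMM factors. No libraries held identical values. CPM per kb used the tables' gene lengths. Positions and overlaps came from GENCODE 29 (GRCh38), and 100-base stretches of each gene were looked for in other genes.

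Members and gene lists were chosen with earlier results of these data known. Named genes were the catalytic subunits, PSMD14, PSMD4, ADRM1, SEM1, the most and least changed subunit of each subcomplex in a comparison, NFE2L1, and up to 3 called genes with the smallest p per list. PSMD7 and the subunits called differently by another tool are among these or are named as exceptions to a count. Under the last part of this rule, a single gene is left out and is not reported here.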

Additional observations from a re-analysis of the deposited data

Results flagged for a closer look

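At 5 subunits every treated library lay above vehicle in MDA-MB-231 and below vehicle in 4T1 tumours under the same combination, a difference that was not tested. With bortezomib plus TM the log2 change of PSMD3, a lid subunit, was 1.55 in MDA-MB-231 and that of Psmd3 was -0.18 in 4T1. With bortezomib plus AMD3100 the log2 change was 1.14 for PSMB5 and -0.3 for Psmb5, 1.82 for PSMB7 and -0.22 for Psmb7, 1.53 for PSMC1 and -0.19 for Psmc1, and 1.09 for SEM1 and -0.33 for Sem1. None of the 4T1 changes was called by edgeR. Of the 10850 genes matched by symbol and tested in both tables, 3198 lay above vehicle in MDA-MB-231 with bortezomib plus TM and 179 of these (5.6%) lay below vehicle in 4T1, beside 1 of 31 subunits; with bortezomib plus AMD3100 it was 326 of 3332 genes (9.78%), beside 4 of 31 subunits. Both counts of subunits are close to these shares of all genes. PSMC1 counts are uncertain in the human tables. Doses, species and tissue differ between the datasets as well.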

How the results depend on the processing

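In MDA-MB-231 the same 31 subunits were called higher than vehicle by either combination under every alternative run. PSMD7 was called lower there with library totals alone. PSMA2, on few counts, changed sign: with bortezomib plus TM it was -0.64 without bortezomib plus TM replicate 3, with bortezomib plus AMD3100 it was -0.26 with library totals, -0.13 without bortezomib plus AMD3100 replicate 2 and -0.27 without vehicle replicate 2, and between the combinations it was 0.74 without bortezomib plus TM replicate 3. On leaving out each replicate it ran from -0.64 to 1.21, from -0.27 to 0.71 and from -0.91 to 0.74 in these comparisons. PSME2 was -0.0035 with library totals under bortezomib plus TM. Between the combinations, 177 genes were called with no low-count filter, 70 by DESeq2 and 0 to 183 on leaving out a replicate, with 0 to 1 subunits, PSMB3 without bortezomib plus TM replicate 3.

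HCC1937 depended most on AMD3100 replicate 1. With all 9 libraries 1 subunit and 1376 genes were called for TM against vehicle, 0 genes for AMD3100 against vehicle, and 1 subunit and 1599 genes for AMD3100 against TM; PSMB5 was then -0.071 and ADRM1 -0.014 for AMD3100 against vehicle, and PSMB5 -0.18 for AMD3100 against TM. For AMD3100 against vehicle, 1 subunit was called with library totals, 5 by DESeq2, 3 by limma-voom and 0 to 1 on leaving out a replicate, and 1030 genes were called with the replicate block, 628 at an adjusted p under 0.01 and 252 to 1485 on leaving out a replicate, the lowest without AMD3100 replicate 3. For AMD3100 against TM, 13 subunits were called at an adjusted p under 0.01 and 13 to 16 on leaving out a replicate, the lowest without AMD3100 replicate 2, and PSMB5 was -0.055 with library totals and -0.0084 without TM replicate 3, up to 0.061 without AMD3100 replicate 2. PSMB6 was 0.018 for TM with library totals. PSMB5 for TM lost its call under the replicate block (edgeR adjusted p = 0.0703).

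In 4T1, DESeq2 called 3 genes with bortezomib plus TM, 17 with bortezomib plus AMD3100 and 6 between them, the compared groups alone gave 1 gene with bortezomib plus AMD3100, and leaving out a replicate gave 0 to 1 genes. Psmd11 was -0.10 with bortezomib plus AMD3100 without its replicate 2 and up to 0.11 without its replicate 1, and Psmb5 between the combinations was 0.031 without bortezomib plus TM replicate 3, 0.011 without bortezomib plus AMD3100 replicate 1 and -0.20 at the lowest. For the TM difference between the lines, 4674 genes were called with all 18 libraries. The cause of these changes was not tested. Deviations of same-numbered replicates from their group means correlated at -0.20 to 0.18 in HCC1937, -0.82 to 0.73 in MDA-MB-231 and -0.62 to 0.69 in 4T1. Differently numbered replicates gave -0.18 to 0.14, -0.75 to 0.75 and -0.73 to 0.75. Deviations cancel out within a group, which forces correlations of both signs but does not set their size. The correlations reached larger sizes in MDA-MB-231 and 4T1 than in HCC1937, so libraries of different groups shared deviations there. Whether same-numbered replicates share an origin or libraries share a batch was not tested.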
